A study of Mus musculus with 6 samples.

Results

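Calb2, Cbln1, Coch and Htra4 were selected on their large increase, old over young, in the deposited counts of mouse bone marrow cultures, and Htra1, Htra2 and Htra3 were added as the other HtrA proteases. Together they are 7 of 39017 genes in the table. Because the increase chose the first 4, their values by age are a description with no test, whereas the other 3 were taken by family name and are tested. The cultures came from wild-type BALB/c mice, an inbred strain, 3 libraries from animals 3 weeks old and 3 from animals more than 78 weeks old. Limb bones were crushed, cells that did not attach were discarded, and the attached cells were expanded and described as macrophages with F4/80 and CD169 on their surface. RNA of 10000 cells went into each library. The design asks how gene expression in such cells goes with the age of the animal. The labels do not state that libraries of the same age are separate animals, so a p-value here refers only to the spread between libraries, which may be technical.

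HtrA proteases are serine proteases in which a trypsin-like domain is followed by a PDZ domain, and they assemble into trimers. Htra1, Htra3 and Htra4 encode secreted enzymes that begin with a module like that of insulin-like growth factor binding proteins (IGFBP). The secreted enzymes are known to cut matrix proteins and to dampen TGF-beta signalling. Htra2 encodes the mitochondrial member, which serves protein quality control and, once in the cytosol, frees caspases from inhibitor of apoptosis proteins. Coch encodes cochlin, a secreted protein with an LCCL domain and von Willebrand factor A domains, best known from the inner ear. Cbln1 encodes cerebellin 1, a secreted relative of C1q that organizes synapses in the cerebellum. Calb2 encodes calretinin, a cytosolic calcium buffer of many neurons that pathologists use as a marker of mesothelium.

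The HtrA genes share the coding sequence around the active-site serine, which is shown because reads of such related genes could be counted for each other. Each line holds 39 coding bases, 5′ to 3′, with the serine codon in capitals, from GENCODE M21 transcripts on the GRCm38 (mm10) build.
Htra1: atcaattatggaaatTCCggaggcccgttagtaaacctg
Htra2: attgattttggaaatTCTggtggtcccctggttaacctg
Htra3: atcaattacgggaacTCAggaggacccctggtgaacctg
Htra4: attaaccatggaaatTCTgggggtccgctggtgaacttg
The codon is number 328 of 480 in Htra1, 306 of 458 in Htra2, 311 of 459 in Htra3 and 332 of 483 in Htra4. Every stretch crosses an exon junction, between exons 3 and 4 in Htra2 and between exons 4 and 5 in the others, and its genomic span includes the intron. These spans are chr7:130979490-130979984 (plus strand) for Htra1, chr6:83053038-83053334 (minus strand) for Htra2, chr5:35665414-35666055 (minus strand) for Htra3 and chr8:25032960-25033569 (minus strand) for Htra4. Any pair of the stretches was identical at 28 to 31 of the 39 bases. Over the aligned coding sequence, identity ran from 58.6% for Htra1 with Htra2 to 63.3% for Htra1 with Htra4. The longest run of identical bases in any pair was 17, against reads of 100 bp.

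Libraries held 34391206 to 43367734 counts, and 15567 genes, all 7 members among them, passed the low-count filter. CPM below are counts scaled to library size after the filter, adjusted by the TMM factor of each library. Per-library values are given in the order of replicates 1, 2 and 3, and means are ± SD over n = 3. Log2 fold changes are old minus young from edgeR, with Benjamini-Hochberg adjustment over all tested genes. Of those genes, 10.5% were called in either direction, 5.84% higher and 4.7% lower in old libraries, and 30.2% had CPM ranges that did not overlap between the ages. Young replicate 3 stood apart on the second principal component, and type I collagen genes took 5.44% of its counts against 1.80% to 3.00% in the other 5 libraries. Of 16 macrophage markers, 14 fell (11 to 14 when any 1 library was left out), while 0 rose by edgeR or DESeq2 and 0 had an unadjusted p under 0.05 in that direction. Their summed level was 9242 to 11020 CPM in young against 5220 to 5624 CPM in old libraries. The CD169 gene Siglec1 averaged 131 ± 6.61 CPM in the young and 43.3 ± 5.28 CPM in the old group, and the F4/80 gene Adgre1 averaged 473 ± 77.5 and 226 ± 25.3 CPM. In bulk RNA, fewer cells of a type and less RNA per cell cannot be told apart.

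Htra3 fell in the old cultures. It encodes a secreted protease first described in the pregnant uterus and also made by connective tissue cells, and it lies on chromosome 5 at 35652023 to 35679782 (minus strand, mm10; ENSMUSG00000029096). The young libraries held 101.0, 92.5 and 120.2 CPM of Htra3, and the old ones 54.2, 54.0 and 65.2 CPM. Every old library lay below every young library, and replicate 3 was the highest of its age in both groups. The log2 fold change was -0.85 (SE 0.13), or 1.81-fold lower, with an edgeR adjusted p of 0.00778. The call held without any 1 library, at adjusted p-values of 0.00531 to 0.0455. Summed stromal and fibroblast markers, 13 genes, were also lower in old libraries, at 30963 to 68920 CPM in young against 23573 to 29693 CPM. Most of that sum was type I collagen. Single genes of the list went both ways, with 2 called higher and 3 called lower by edgeR. The part of stromal cells in the Htra3 result was not tested.

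Htra1, made by bone, cartilage and fibroblast cells and best known from an inherited human small-vessel disease, was not called. It lies on chromosome 7 at 130936111 to 130985660 (plus strand; ENSMUSG00000006205). The young libraries held 47.7, 53.8 and 102.9 CPM of Htra1, and the old ones 69.4, 67.4 and 82.8 CPM. All old libraries were above young replicates 1 and 2 and below young replicate 3, the library with the most collagen counts. The log2 fold change was 0.10 (SE 0.28, edgeR adjusted p = 0.880). It became 0.53 and was called when young replicate 3 was left out (adjusted p = 0.0250), and it turned to -0.10 and -0.043 without young replicate 1 or 2. The part of that library's collagen share in the result was not tested.

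The ratio of these secreted proteases did not overlap between the ages. Per kb of exon, Htra3 stood to Htra1 as 1.37, 1.11 and 0.757 to 1 in the young libraries and as 0.506, 0.520 and 0.511 to 1 in the old ones. The old ratios were all below the young ones and nearly equal to each other. On average the ratio was 2.05-fold lower in old libraries, with p = 0.1 in an exact two-sided permutation test over libraries, the smallest p that 3 against 3 allow.

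Htra4, a secreted protease known mainly from the placenta, was barely detected in young cultures. It lies on chromosome 8 at 25024929 to 25038962 (minus strand; ENSMUSG00000037406). Its counts were 23, 11 and 20 in young and 532, 463 and 458 in old libraries. In CPM these were 0.656, 0.311 and 0.594 against 12.1, 12.0 and 12.7. The old libraries were alike, with a coefficient of variation of 3.03%, and far above all young ones. The fitted log2 fold change was 4.55, or 23.5-fold higher, and ranged from 4.29 to 4.76 when 1 library was left out.

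Part of Htra4 is covered by another gene. Over 792 bases, 32.9% of its exon length, it overlaps Gm16933, a long noncoding RNA gene on the opposite strand, and the library kit does not mark the strand, so reads from those bases cannot be assigned. Gm16933 counts were 1586, 1530 and 890 in young and 2126, 1661 and 1730 in old libraries, and 80.7% of its own exon length is shared with other genes, so these counts may not all be its own. In CPM its groups overlapped, and its log2 fold change was 0.28 (SE 0.20, edgeR adjusted p = 0.466). Trophoblast markers, which stand for the best known source of Htra4, summed to 1.93 to 2.97 CPM at the young and 1.44 to 2.53 CPM at the old age. Of 11 such genes, Gcm1, Tpbpa, Prl3d1, Prl3b1 and Synb had 0 counts in all 6 libraries. Of the 2 that were tested, 0 passed by edgeR or DESeq2 and 0 had an unadjusted p under 0.05, and the imprinted gene Peg10 had a log2 fold change of 0.37 (edgeR adjusted p = 0.612). The other, Hand1, named after its values were seen, was at -1.23 (edgeR adjusted p = 0.560). Without young replicate 3, 1 gene of the list was called lower, Ascl2, which did not pass the filter with all 6 libraries and is also named after the fact.

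Htra2 differed little between the ages. It lies on chromosome 6 at 83051266 to 83055273 (minus strand; ENSMUSG00000068329). The young libraries held 62.2, 69.8 and 57.7 CPM of Htra2, and the old ones 63.8, 69.0 and 67.0 CPM, all within the young range. The log2 fold change was 0.075 (SE 0.096, edgeR adjusted p = 0.713) and lay between 0.014 and 0.15 when 1 library was left out. Htra2 shares 25.6% of its exon length with Aup1 and 18.2% with Loxl3, both on the opposite strand. Aup1, a gene of lipid droplets and protein degradation at the endoplasmic reticulum, was at 220 ± 18.4 CPM at the young and 212 ± 14.3 CPM at the old age (edgeR adjusted p = 0.777). Loxl3, a relative of lysyl oxidase, was at 315 ± 63.8 and 452 ± 19.5 CPM (edgeR adjusted p = 0.0635). Loxl3 passed by the DESeq2 test (adjusted p = 0.00965) and by edgeR without young replicate 3 (adjusted p = 0.00250).

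**Figure D1:**
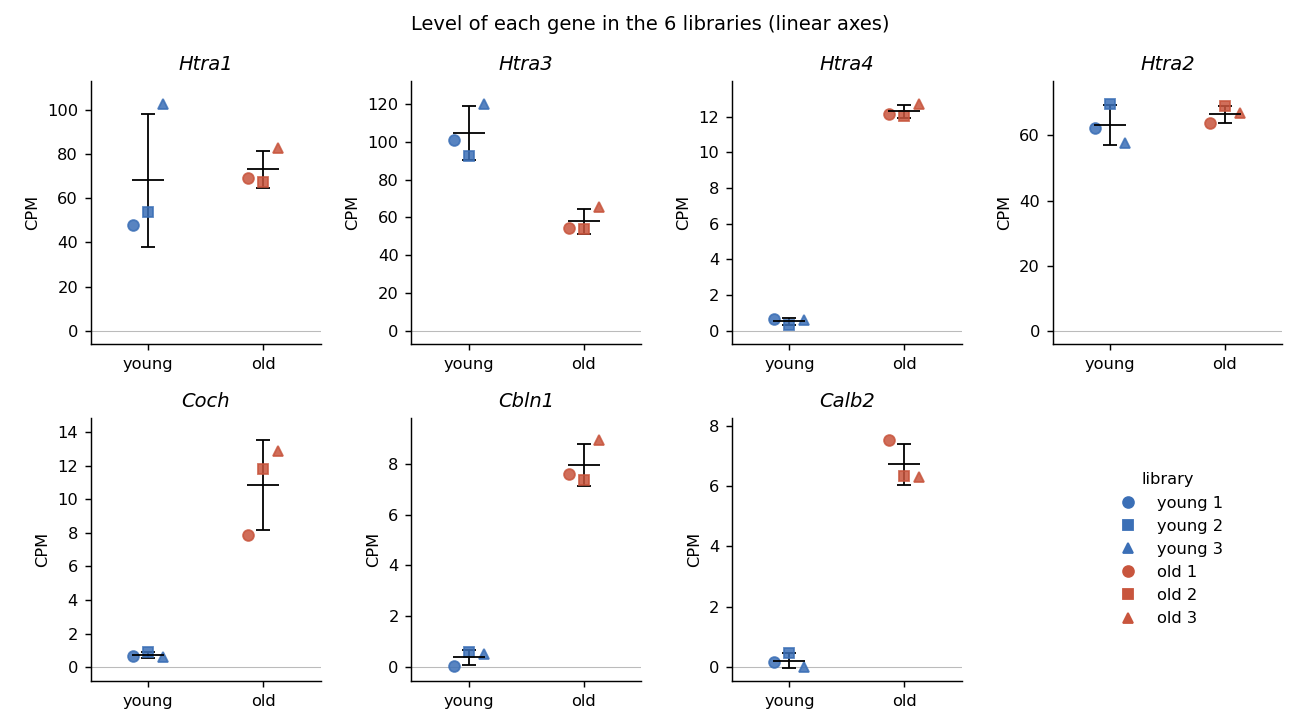
CPM of each of the 7 genes in the 6 libraries on linear axes, young in blue and old in red, with the symbol giving the replicate, the dash the mean and the bar ± SD over n = 3. Htra4, Coch, Cbln1 and Calb2 are near 0 in young libraries, Htra3 is lower in all old libraries, and the old Htra1 values lie between young replicates 1 and 2 and young replicate 3.

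As a family, the 4 HtrA genes summed to 68.9 ± 12.0 CPM per kb of exon in young and 66.2 ± 4.63 CPM per kb in old libraries. Htra3 made up 32.8% to 37.5% of that sum in young and 19.0% to 20.6% in old libraries. Htra4 made up 0.204% to 0.450% and then 7.4% to 8.01%, a difference that its choice implies. Htra1 made up 27.3% to 43.3% and then 36.6% to 40.2%, and Htra2 made up 23.7% to 37.4% and then 31.8% to 36.6%, so that both overlapped between the ages.

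**Figure D2:**
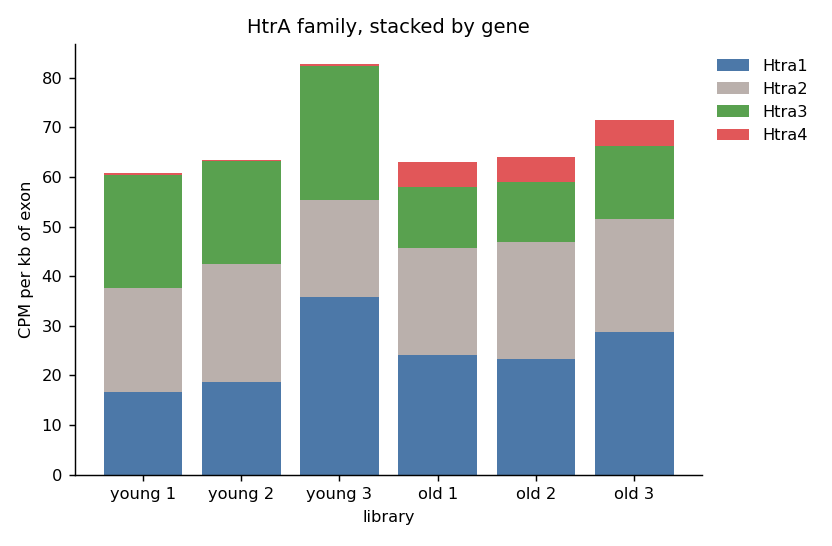
CPM per kb of exon in each library, stacked by HtrA gene. The total is highest in young replicate 3, at 82.6 CPM per kb, the Htra3 segment is smaller in the 3 old libraries, and the Htra4 segment is visible mainly in those.

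By level per kb of exon, Htra1 led the old libraries at 25.4 ± 2.91 CPM per kb, ahead of Htra2 at 22.6 ± 0.889, Htra3 at 13.03 ± 1.45 and Htra4 at 5.11 ± 0.155 CPM per kb. Then came Calb2 at 3.85 ± 0.394, Coch at 3.62 ± 0.885 and Cbln1 at 2.62 ± 0.276 CPM per kb. The ranges of Htra1 and Htra2 overlapped, as did those of Calb2 and Coch and of Coch and Cbln1, so these neighbours in the order were not separated by their spread. In young libraries Htra1, Htra3 and Htra2 overlapped at 23.7 ± 10.5, 23.5 ± 3.20 and 21.5 ± 2.07 CPM per kb. Coch, Htra4, Cbln1 and Calb2 averaged 0.125 to 0.246 CPM per kb there. On this scale 51.2% of tested genes were below Htra4 in old libraries, compared with 7.71% in young ones, a shift that its choice implies. These levels divide by the whole exon length, and whether reads from the bases that Htra2 and Htra4 share with other genes were counted is not known. With those bases left out of the length, as if no read from them had been counted, Htra2 led the old libraries at 40.2 ± 1.58 CPM per kb and Htra4 stood at 7.63 ± 0.231 CPM per kb. Htra3 then made up 25.5% to 29.4% of the family sum in young and 14.4% to 16.0% in old libraries, and Htra2 made up 35.5% to 51.4% and 44.0% to 49.2%.

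Coch was low in young and well detected in old cultures. It lies on chromosome 12 at 51593341 to 51605771 (plus strand; ENSMUSG00000020953) and shares no exon with another gene. Its counts were 23, 33 and 21 in young and 344, 455 and 464 in old libraries. In CPM these were 0.656, 0.934 and 0.624 against 7.85, 11.8 and 12.9. Old replicate 1 was the lowest of its age and still far above the young libraries. The fitted log2 fold change was 3.87, or 14.6-fold higher, and ranged from 3.73 to 4.07 when 1 library was left out. Markers of the inner ear, where cochlin is abundant, summed to 47.0 to 64.3 CPM at the young and 34.9 to 42.7 CPM at the old age. Of 14 such genes, 7 had 0 counts in all 6 libraries, among them Tecta, Otog and Atoh1. Of the 3 that were tested, Otor, a secreted protein gene of cartilage and cochlea, rose from 0.287 ± 0.0999 to 2.01 ± 0.763 CPM (edgeR adjusted p = 0.00833). The connexin gene Gjb2 fell from 6.98 ± 0.497 to 0.581 ± 0.257 CPM (edgeR adjusted p = 0.00142). Otor and Gjb2 held little of the inner ear sum, most of which came from the remaining tested gene, which did not pass by edgeR.

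The 250 bases upstream of the transcription start, as RefSeq gives them on GRCm38.p6, are shown for Coch, which was higher, and for Htra3, which fell. They are chr12:51593091-51593340 on the plus strand and chr5:35679781-35680030 on the minus strand, and capitals mark matches to the motifs named after them.
Coch: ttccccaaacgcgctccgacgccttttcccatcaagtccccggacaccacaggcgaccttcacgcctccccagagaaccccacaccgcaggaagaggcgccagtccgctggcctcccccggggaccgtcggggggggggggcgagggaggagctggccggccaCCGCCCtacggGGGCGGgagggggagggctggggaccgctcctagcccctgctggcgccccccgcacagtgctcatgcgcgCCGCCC
Htra3: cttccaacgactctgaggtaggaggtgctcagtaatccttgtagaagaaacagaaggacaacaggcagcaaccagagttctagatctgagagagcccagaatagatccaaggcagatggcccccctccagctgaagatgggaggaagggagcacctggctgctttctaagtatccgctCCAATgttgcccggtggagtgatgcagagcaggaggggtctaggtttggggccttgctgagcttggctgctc
Both strands were searched for 5 motifs. The letters TATAAA stood for a TATA box and CCAAT for the box of that name. A GC box was GGGCGG. An E-box was CACGTG, and TGACTCA was taken as an AP-1 site. Coch held 3 GC boxes, Htra3 held 1 CCAAT box, and Htra1, the other member with an entry, held 1 of each. Among 32851 windows of this length, 32.7% held a GC box, 33.8% a CCAAT box, 12.4% a TATA box, 6.02% an E-box and 4.46% an AP-1 site. The Coch window was 74.8% G and C with 24 CpG dinucleotides and the Htra3 window 54.8% with 3, where the medians of all windows were 52.4% and 6.

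Cbln1 was close to absent from young libraries. It lies on chromosome 8 at 87468405 to 87472609 (minus strand; ENSMUSG00000031654). Its counts were 2, 21 and 17 in young and 332, 284 and 321 in old libraries. In CPM these were 0.057, 0.594 and 0.505 against 7.58, 7.37 and 8.91. Young replicate 1 was the lowest by far, and the ages did not overlap. The fitted log2 fold change was 4.36, or 20.5-fold higher, and ranged from 3.84 without young replicate 1 to 4.82 without young replicate 2. The level at which the low-count filter retains a gene, 0.278 CPM, was reached in 2 young and all 3 old libraries.

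Relatives of Cbln1 were mostly too low to test. Of 20 other cerebellins and synapse organizers, 4 passed the low-count filter and 6 had 0 counts in all 6 libraries, among the latter Cbln4, C1ql4 and Adgrb3. The list rose in 0 cases by edgeR and 0 by DESeq2, with 1 gene at an unadjusted p under 0.05 and 1 called without young replicate 3. C1ql3, a C1q-like gene of neurons, fell from 2.85 ± 0.916 to 0.568 ± 0.331 CPM (edgeR adjusted p = 0.0214). It shares 64.2% of its exon length with other genes, and its adjusted p was 0.0763, 0.0932 and 0.0746 without old replicate 1, old replicate 2 or young replicate 1. The median log2 fold change of the list was -0.12, where that of all tested genes was -0.010.

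Calb2 had the largest fitted change of the 7 and the fewest young counts. It lies on chromosome 8 at 110137502 to 110168210 (minus strand; ENSMUSG00000003657). Its counts were 6, 17 and 0 in young and 329, 244 and 227 in old libraries. In CPM these were 0.171, 0.481 and 0 against 7.51, 6.34 and 6.30. Young replicate 2 held most of the young counts, and old replicate 1 was the highest library. The fitted log2 fold change was 4.91, or 30.1-fold higher. It was 6.22 without young replicate 2, where 6 young counts remained, and 5.90 with limma-voom. The filter level was reached in 1 young and all 3 old libraries.

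Mesothelial markers, listed because calretinin marks that tissue, summed to 2.85 to 4.64 CPM at the young and 11.9 to 15.6 CPM at the old age. Most of that sum was the keratin gene Krt7, and the other 8 genes summed to 0.742 to 1.36 and 0.861 to 1.66 CPM, which overlapped. The defining genes Msln and Bnc1 had 0 counts in all 6 libraries. Krt7 rose from 2.96 ± 0.794 to 12.5 ± 1.43 CPM (edgeR adjusted p = 0.00230), and it was the 1 of 2 tested genes that passed. The part of such cells in the Calb2 values was not tested. Neuron and Schwann cell markers summed to 7.67 to 15.6 CPM at the young and 6.96 to 7.91 CPM at the old age, and Snap25 and Gad1 had 0 counts throughout. Tubb3, which encodes a neuronal tubulin, fell from 7.69 ± 3.19 to 1.79 ± 0.394 CPM (edgeR adjusted p = 0.0114, and 0.0557 without old replicate 1).

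Genes of other cytosolic EF-hand proteins, the relatives of calretinin, were mostly not called. With all 6 libraries the share called was still above the 10.5% of all tested genes. Of 15 tested, 1 rose (0 without old replicate 1 or 2), 3 fell (0 without old replicate 1 or 2 or young replicate 1 or 2, and 4 without young replicate 3) and 11 did not pass. The median log2 fold change was -0.010, and Calb1, which encodes the closely related calbindin, and Pvalb had 0 counts in all 6 libraries. Ncald, a neuronal calcium sensor gene, rose from 4.60 ± 0.576 to 8.52 ± 0.230 CPM (edgeR adjusted p = 0.0115). Efhd2 fell from 823 ± 44.5 to 616 ± 33.3 CPM (edgeR adjusted p = 0.0202). Vsnl1, another calcium sensor gene, was at 0.526 ± 0.147 CPM at the young and 0.0185 ± 0.0321 CPM at the old age (edgeR adjusted p = 0.0211, and 0.0705 with the replicate number as a block).

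**Figure D3:**
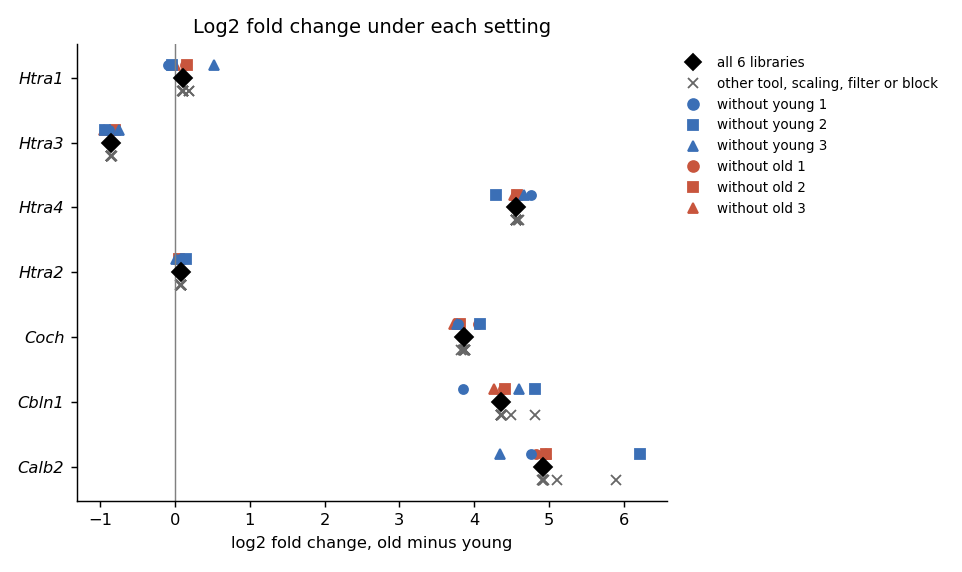
Log2 fold change, old minus young, of each gene with all 6 libraries (black diamond), under another tool, scaling, filter or block (grey crosses) and without each library (coloured symbols). Htra3 stays below 0 and Htra4, Coch, Cbln1 and Calb2 stay at 3.73 or above in all of these, while Htra1 lies on either side of 0.

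The genes with the most similar profiles differed from member to member. Likeness was the root mean square difference of centred log2 CPM over the 6 libraries, on which a smaller value is closer. For Htra3 the closest were C1qtnf6, H2-T-ps and the cyclin gene Ccnd2, at 0.064 to 0.075. For Htra1 they were the actin crosslinker gene Actn4, Rtn4rl1 and the chromatin remodeller gene Chd3, at 0.061 to 0.072, all with their highest level in young replicate 3. For Htra2 they were Prim2, Ppp1r2 and Stom, at 0.022 to 0.032. Coch was closest to Ang2, a gene of the angiogenin family, at 0.281, then to Ccdc3 at 0.331 and Parm1 at 0.343. Ccdc3 shares 69.1% of its exon length with other genes. Htra4 was closest to the elongation factor gene Eef1a2 at 0.294, then to the adrenergic receptor gene Adra1a at 0.584 and the immunoglobulin gene Ighg2c at 0.589. With a prior count of 0.5 in place of 2, Eef1a2 and Ighg2c were no longer among the 3 closest to Htra4, nor were Dio2 for Cbln1 and Prg4 for Calb2. Cbln1 was closest to the complement receptor gene Vsig4 at 0.470, and the deiodinase gene Dio2 was also among its 3 closest, at 0.542. Calb2 was closest to the immunoglobulin light chain gene Igkc at 0.472, then to Gata1 and the lubricin gene Prg4 at 0.663 and 0.735. Like Calb2, Igkc was lowest in young replicate 3, at 3.30 CPM, a likeness that its choice by profile favours. Among young libraries Igkc was highest in replicate 1, at 25.5 CPM, and Calb2 in replicate 2, at 0.481 CPM. The Igkc level of 411 ± 49.4 CPM in old libraries was much higher than that of Calb2.

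Genes beside the members on the chromosome were mostly not called, as were most of all tested genes, of which 10.5% were called. Coch lies between Scfd1 and Strn3, whose log2 fold changes were -0.096 and 0.32 (edgeR adjusted p = 0.612 and 0.0822). Htra4 lies between Tm2d2, which was called at 0.42 (adjusted p = 0.0381), and Plekha2, 182 bases away, at 0.23 (adjusted p = 0.261). The adjusted p of Tm2d2 was 0.0531 to 0.15 without young replicate 2 or any of the old replicates. N4bp1 beside Cbln1 and Cmtr2 beside Calb2 were at 0.015 and -0.028 (adjusted p = 0.950 and 0.955), and the genes on the other side, 4933402J07Rik and Gm21964, had 0 counts in all 6 libraries. Htra3 lies between Acox3 and Sh3tc1, at -0.16 and -0.0035 (adjusted p = 0.276 and 0.994). Htra1 lies inside the annotated span of the growth factor receptor gene Fgfr2 without a shared exon, and Fgfr2 was at 0.045 (adjusted p = 0.915).

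Proteins known as HtrA substrates were mixed. Of 14 tested matrix and growth factor genes, 4 rose, 1 fell and 9 did not pass, with a median log2 fold change of -0.0094. The risen count was 7 without young replicate 3 and 1 without any of the other 5 libraries, and the fallen count was 0 to 2. Efemp1, which encodes the matrix protein fibulin 3, rose from 2.54 ± 0.989 to 23.8 ± 3.95 CPM (log2 fold change 3.22, SE 0.31, edgeR adjusted p = 0.00137). It was the gene whose call held without every library in turn, at adjusted p-values of up to 0.0100. Ltbp1, which encodes a latent TGF-beta binding protein, rose from 164 ± 43.2 to 294 ± 14.3 CPM (edgeR adjusted p = 0.0245), and Igfbp5 from 66.8 ± 25.5 to 151 ± 10.03 CPM (edgeR adjusted p = 0.0250). Both calls were lost without any library other than young replicate 3, at adjusted p-values of up to 0.0969 and 0.0952.

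Proteins with the IGFBP module that Htra1, Htra3 and Htra4 also carry, listed as secreted although Crim1 encodes a membrane protein, changed in both directions. Of 14 tested, 7 rose (5 to 9), 3 fell (3, or 1 without old replicate 1 or 2) and 4 did not pass, and the median log2 fold change was 0.61. Igfbp6 rose from 11.0 ± 1.11 to 48.0 ± 5.09 CPM (edgeR adjusted p = 0.000422). Crim1, which encodes a membrane protein that tethers bone morphogenetic proteins, rose from 47.7 ± 8.06 to 135 ± 6.79 CPM (edgeR adjusted p = 0.00118). Igfbp3, a main carrier of insulin-like growth factors in blood, fell from 36.2 ± 5.04 to 3.56 ± 0.960 CPM (edgeR adjusted p = 0.000492).

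Among other secreted and membrane serine proteases, 4 of 22 rose (3 to 7), 2 fell (1 to 4) and 16 did not pass, and the median log2 fold change was 0.23. The highest counts, 7 and 4, came without young replicate 3, and the lowest fallen count without old replicate 1 or 2. F7, which encodes coagulation factor VII, rose from 2.83 ± 0.456 to 10.5 ± 2.11 CPM (edgeR adjusted p = 0.00240). Prss23 rose from 431 ± 63.0 to 846 ± 54.8 CPM (edgeR adjusted p = 0.00373), and 22.9% of its exon length is shared with other genes. Prss35 fell from 88.4 ± 33.96 to 10.7 ± 3.17 CPM (edgeR adjusted p = 0.00271).

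Of 17 tested serine protease inhibitors, 3 rose, 1 fell and 13 did not pass, and the median log2 fold change was 0.0078. The risen count was 1 without old replicate 2 or young replicate 1, 2 without old replicate 1 or 3 or young replicate 2, and 5 without young replicate 3. Slpi, the secretory leukocyte protease inhibitor gene, rose from 19.0 ± 2.62 to 146 ± 8.19 CPM (log2 fold change 2.94, SE 0.12, edgeR adjusted p = 0.000270). Serpinb2 rose from 2.62 ± 0.971 to 14.8 ± 6.59 CPM (edgeR adjusted p = 0.0125, and 0.0514 and 0.0506 without old replicate 2 or young replicate 1). Serpine2, which encodes an inhibitor of thrombin, fell from 379 ± 126 to 154 ± 30.3 CPM (edgeR adjusted p = 0.0173, and 0.0804 and 0.0754 without old replicate 1 or 2).

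Mitochondrial proteases and the apoptosis genes around Htra2 were mostly not called, as were most of all tested genes. Of 22 tested, 1 rose, 0 fell and 21 did not pass, with a median log2 fold change of -0.053. Over all tested genes, 5.84% were called higher and 4.7% lower. DESeq2 called 3 higher and 2 lower, and at an unadjusted edgeR p under 0.05 there were 6 and 2. The gene called was Birc2, which encodes an inhibitor of apoptosis protein, at 28.4 ± 2.24 CPM at the young and 38.2 ± 2.67 CPM at the old age (edgeR adjusted p = 0.0414). Its call held without young replicate 3, where 2 genes rose and 2 fell, and was lost without any of the other 5 libraries (adjusted p of up to 0.162), with the replicate block (0.0912) and with no low-count filter (0.0501).

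Relatives of Coch with LCCL or von Willebrand A domains gave 2 that rose, 1 that fell and 9 that did not pass of 12 tested, with a median log2 fold change of -0.13. Vit, which encodes vitrin, the nearest relative of cochlin, rose from 1.09 ± 0.227 to 3.13 ± 0.271 CPM (edgeR adjusted p = 0.0102, and up to 0.0494 when 1 library was left out). The matrilin gene Matn4 rose from 5.21 ± 2.36 to 13.9 ± 1.82 CPM (edgeR adjusted p = 0.0277). It still passed without young replicate 3 but not without any of the other 5 libraries (adjusted p of up to 0.0953). The collagen VI gene Col6a3 fell from 372 ± 175 to 153 ± 27.3 CPM (edgeR adjusted p = 0.0445). It did not pass without any of the old replicates or without young replicate 1 (adjusted p of up to 0.165).

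**Figure D4:**
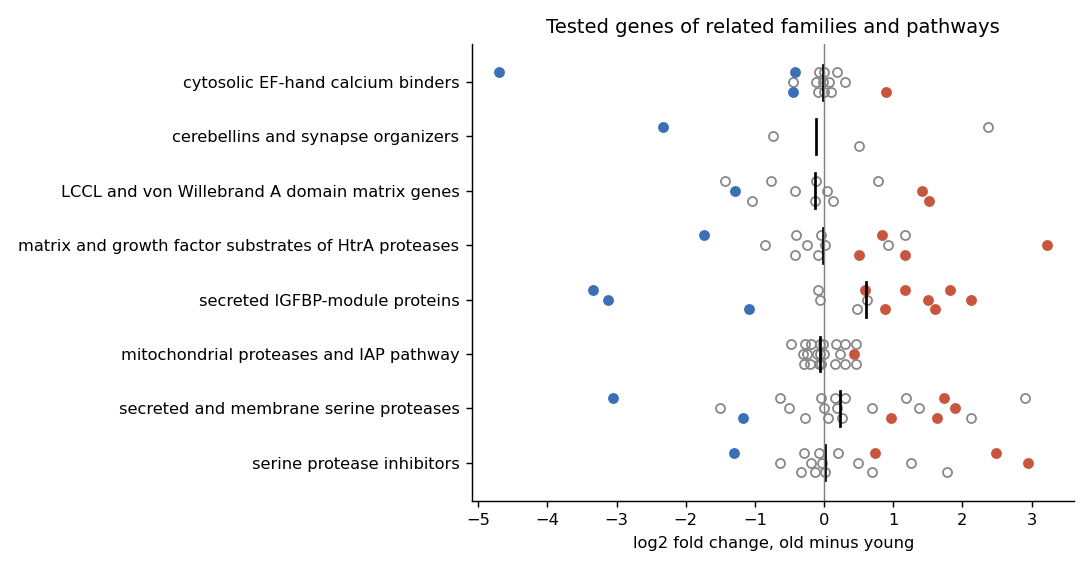
Log2 fold change, old minus young, of each tested gene in the 8 family and pathway lists, without Calb2, Cbln1, Coch and Htra4. Called genes are filled, red when higher and blue when lower, open symbols were not called, and the black line is the median. Mitochondrial genes lie close to 0, and IGFBP-module genes spread to both sides.

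Summed markers of several other cell types were higher in the same old libraries as Calb2, Cbln1, Coch and Htra4. B lineage markers summed to 64.4 to 73.2 CPM in young against 181.7 to 261.2 CPM in old libraries. Megakaryocyte and platelet markers summed to 63.4 to 106.6 against 252.6 to 361.0 CPM, and mast cell and basophil markers to 31.7 to 47.8 against 83.95 to 141 CPM. Smooth muscle and pericyte markers summed to 2320 to 3050 against 3998 to 4526 CPM, and adipocyte markers to 323 to 589 against 811 to 1006 CPM. Acta2 made up most of the smooth muscle sum, at 2175 ± 293 in young and 3561 ± 256 CPM in old libraries. Lpl made up most of the adipocyte sum, at 393 ± 131 and 762 ± 107 CPM. Fabp4 and Pparg made up nearly all of the rest, and Lep and Retn had 0 counts in all 6 libraries. Lpl, Fabp4 and Pparg were also the 3 adipocyte genes that were called. Of 10 tested smooth muscle genes 3 rose, 1 fell and 6 did not pass. Cartilage and synovial lining markers summed to 557 to 1773 against 1353 to 1877 CPM and overlapped. Of 7 tested genes in that list 3 rose and 1 fell. Prg4, which encodes the joint lubricant lubricin, rose from 0.229 ± 0.129 to 14.1 ± 2.45 CPM (edgeR adjusted p = 0.000473). Sox9 fell from 86.9 ± 8.49 to 58.0 ± 1.75 CPM (edgeR adjusted p = 0.0103, and up to 0.0564 when 1 library was left out). The part of these cell types in the values of Calb2, Cbln1, Coch and Htra4 was not tested.

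**Figure D5:**
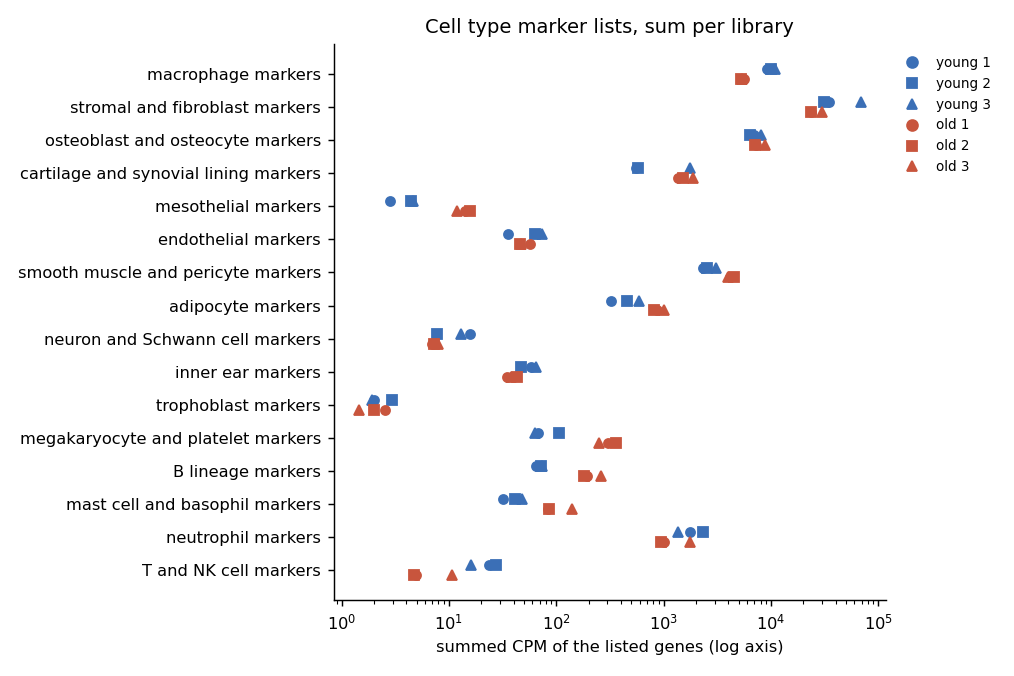
Summed CPM of each of the 16 cell type marker lists in each library, on a log axis, young in blue and old in red. Macrophage sums are lower in every old library, and B lineage, megakaryocyte, mast cell, adipocyte, smooth muscle and mesothelial sums are higher in every old library.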

How the data were processed

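The authors deposited whole-number read counts per gene for the 6 libraries. Their tools, per the submitters' processing notes, were SAMtools 1.9, StringTie 1.3.4d, Picard 2.18.15, HISAT2 2.1.0, STAR 2.6.1a, Trim Galore 0.50 and cutadapt 1.18, on mm10. How reads were counted, with which annotation and strand setting, is not given in the sources used here. Per the labels' protocols, cDNA was amplified with a low-input kit and read in pairs of 100 bp.

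Libraries were grouped by the age in the labels. The test was edgeR 4.0.16 in R 4.3.3 (filterByExpr, TMM, robust quasi-likelihood, no block), adjusted by Benjamini-Hochberg over 15567 genes at a threshold of 0.05. An SE is the size of the log2 fold change over the square root of F. Positions, exon lengths (union of exons) and overlaps are from GENCODE M21. The ratio test used scipy 1.17.1 and the alignments Biopython 1.88. In simulated counts of the 15567 genes with 200 changed, the test recovered 10.4% of genes changed 1.5-fold, 69.2% at 2-fold, 87.3% at 4-fold and 93.3% at 8-fold. It also called 12 genes that had not been changed.

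The members and the 24 gene lists were chosen with earlier results of these data known. Muc16 was the 1 listed gene without an identifier. Named genes are the members, genes that overlap their exons, the nearest protein-coding gene on each side, the 3 closest profiles (prior count 2, mean of at least 1 CPM, no predicted models), up to 3 called genes of smallest p per list or else its most abundant gene, and Adgre1 and Siglec1, and a few of these are not reported here. Alternatives were DESeq2 1.42.0 (size factors, test), factors from the upper quartile, or from all but the 50 most abundant genes, limma-voom (limma 3.58.1), no filter, a filter of 50 counts in 3 libraries, a replicate block, each library left out, a ratio not divided by length, and a prior count of 0.5. Leaving shared exon bases out of the length was added after the data were seen.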

Additional observations from a re-analysis of the deposited data

How the results depend on the processing

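Htra3, Htra4, Coch, Cbln1 and Calb2 kept their direction, and Htra3 its call, under each tool, scaling, filter, block and left-out library that was run. When 1 library was left out, the log2 fold change lay between -0.95 and -0.74 for Htra3, between 4.35 and 6.22 for Calb2 and between -0.10 and 0.53 for Htra1. Htra1 reversed to -0.10 without young replicate 1 and to -0.043 without young replicate 2, and passed at 0.53 without young replicate 3. The log2 ratio of Htra3 to Htra1 lay between -1.27 and -0.84. Of all genes, 909 were higher (418 to 1459 with 1 library left out) and 731 lower (294 to 1168), and the DESeq2 test gave 1137 lower. The most calls in either direction, 1459 and 1168, came without young replicate 3, and counts also moved by over 1.5 times, to 539 and 432 or fewer, without young replicate 1 or any of the old replicates. Over all lists, 54 genes were higher (28 to 63) and 40 lower (18 to 46). Fits without a library have fewer samples, and the cause of these shifts was otherwise not tested.

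Same-numbered libraries of the ages had deviations correlated at 0.088, 0.034 and 0.090, so the numbers were not taken to pair them, although each library correlated best with its own number. With the replicate block 711 genes were higher and 575 lower, and Htra3 stayed at -0.85 (adjusted p = 0.00619). Of the 21 closest profiles, 17 stayed at a prior count of 0.5, and the 4 that did not belong to Htra4, Cbln1 and Calb2. Young totals of 23 and 40 counts limit the folds of Calb2 and Cbln1.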

Other observations

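Bone-forming genes and other marker lists not described above moved as follows. Of 11 tested osteoblast and osteocyte markers, 5 fell (3 to 7 when 1 library was left out) and 1 rose (0 to 1). Dmp1, a matrix gene of osteocytes, fell from 48.3 ± 17.2 to 0.445 ± 0.106 CPM (edgeR adjusted p = 0.000341), and Ibsp, which encodes bone sialoprotein, fell from 1204 ± 499.7 to 54.8 ± 19.99 CPM (edgeR adjusted p = 0.00135). Of 13 stromal markers, 2 rose (2 to 3) and 3 fell (0 to 2), and the median log2 fold change was -0.68. DESeq2 called 3 of them higher and 5 lower. Postn fell from 252 ± 161 to 49.3 ± 7.63 CPM (edgeR adjusted p = 0.0142, and up to 0.0730 when 1 library was left out). Pdgfra, a receptor gene of mesenchymal cells, rose from 61.8 ± 5.53 to 145 ± 18.2 CPM (edgeR adjusted p = 0.00137), and the chemokine gene Cxcl12 rose from 589 ± 109 to 1511 ± 97.4 CPM (edgeR adjusted p = 0.00224). Of 6 tested adipocyte markers 3 rose (2 to 3), among them Fabp4, from 25.2 ± 1.79 to 63.3 ± 1.14 CPM (edgeR adjusted p = 0.000492).

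Of 9 tested B lineage markers 8 rose (3 to 7), with 4 under the replicate block. Of 12 megakaryocyte markers 5 rose (2 to 8), of 11 mast cell and basophil markers 5 (2 to 5), of 7 cartilage and synovial markers 3 (1 to 3, with 1 lower) and of 10 smooth muscle markers 3 (0 to 4, with 1 lower). Of 12 endothelial markers 1 fell (0 to 1). Of 11 neutrophil markers Mmp8 was the 1 that rose, from 16.9 ± 3.10 to 44.9 ± 5.10 CPM (edgeR adjusted p = 0.00251). Mmp8 was also the 1 with a positive log2 fold change, and the median of the list was -0.62. edgeR called 0 of them lower and DESeq2 2, and 3 were lower at an unadjusted edgeR p under 0.05. Of 7 T and NK cell markers Cd4 was the 1 that fell, from 10.2 ± 0.828 to 1.65 ± 0.376 CPM (edgeR adjusted p = 0.000778).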
